A study of Mus musculus with 17 samples.

Results

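The primary transcript of miR-212 and miR-132 was followed in the hippocampus through 3 rows of the count table, the host transcript 1700016P03Rik and the hairpin genes Mir212 and Mir132. These are 3 of the 55471 genes in the table, found by their Ensembl identifiers. The locus was selected on its rise after the last injection of pentylenetetrazole (PTZ) in control mice. In that comparison, Control PTZ45 against Control PTZ0, the host transcript had 221.1 and 179.3 normalized counts in the 2 PTZ45 libraries and 8.8, 3.5 and 11.4 in the 3 PTZ0 libraries. All contrasts that hold the Control PTZ45 or Control PTZ0 libraries are therefore given for the members as a description, with no test.

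The 17 libraries were made from hippocampal total RNA of C57BL/6 mice aged 3 to 6 months, in 6 groups of 3 libraries, except Control PTZ45 with 2. CBP-ifKO mice carried floxed Crebbp alleles and Camk2a-creERT2, a tamoxifen-inducible Cre recombinase expressed in forebrain excitatory neurons, so interneurons, glia and vessels of the same tissue keep CBP, the lysine acetyltransferase that Crebbp encodes. Controls were littermates without the recombinase by the study's methods, although the sample descriptions name Camk2a_creERT2 for them as well, and all groups of both genotypes had received 5 doses of tamoxifen. In both genotypes, Sal mice had no kindling course and were given saline, PTZ0 mice had a kindling course of 45 mg/kg PTZ on alternate days and saline a week later, and PTZ45 mice had the same course and a last dose of 45 mg/kg PTZ. The course is the treatment given, and these files hold no seizure scores. The paper reports that in this experiment all controls came to have seizures during the course. By its account no CBP-ifKO reached the stage of progressive seizures. Effects of genotype on seizures and on transcription therefore cannot be told apart. PTZ blocks GABA-A receptors and is convulsant. Tissue was collected 45 min after that last injection. Each library came from an individual mouse, so the p-values below measure the spread between these mice. In whole tissue, fewer cells of a type and less RNA per cell cannot be told apart.

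MiR-212 and miR-132 are processed from the same nuclear transcript, which Drosha and its partner Dgcr8 cut into hairpins and which Dicer1 then trims to mature microRNAs. A mature microRNA is loaded onto an Argonaute protein and pairs through its seed with sites in the 3′ untranslated regions of messenger RNAs, which are then repressed. The cluster is known in neurons as a target of the transcription factor CREB, for which CBP is a coactivator. Its transcription follows neuronal activity, and its microRNAs are known for effects on dendrite growth, spines and synaptic plasticity.

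The mature sequences are shown because the pairing of each microRNA is set by its seed. They are from RefSeq on GRCm38.p6, written 5′ to 3′ with the seed, bases 2 to 8, in capitals.
miR-212-5p: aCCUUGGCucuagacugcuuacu
miR-212-3p: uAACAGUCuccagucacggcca
miR-132-5p: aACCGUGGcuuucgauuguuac
miR-132-3p: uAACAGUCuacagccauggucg
They lie on the plus strand of chromosome 11 at chr11:75173403-75173425, chr11:75173443-75173464, chr11:75173686-75173707 and chr11:75173723-75173744. The 3p arms of miR-212 and miR-132 share the seed AACAGUC, which no other of the 1679 mature microRNAs in the RefSeq table has. Over their length these arms are the same at 17 of 22 positions. With miR-132-3p as the reference and positions counted from 1 at the 5′ end, the differences are A10C, C14U, U17C, U20C and G22A, all outside the seed. The 5p arms have separate seeds, CCUUGGC in miR-212-5p and ACCGUGG in miR-132-5p, and are the same at 9 of 22 positions.

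The hairpins that the count table lists as genes are shown with both mature arms in capitals, as the counts of Mir212 and Mir132 below are of reads placed on these stretches.
Mir212: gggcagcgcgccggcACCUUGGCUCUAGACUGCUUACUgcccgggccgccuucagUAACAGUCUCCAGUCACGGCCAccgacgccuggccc
Mir132: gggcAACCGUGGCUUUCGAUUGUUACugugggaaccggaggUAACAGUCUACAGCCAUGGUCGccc
Mir212 (ENSMUSG00000065590) occupies chr11:75173388-75173478, 91 bases, and Mir132 (ENSMUSG00000065537) chr11:75173682-75173747, 66 bases. Both lie in intron 1 of 1700016P03Rik (ENSMUSG00000085609), an annotated processed transcript at chr11:75172560-75177633 on the plus strand. They start 828 and 1122 bases from its 5′ end and stop 499 and 230 bases before exon 2. The host has exons of 38 bases (chr11:75172560-75172597), 184 bases (chr11:75173978-75174161) and 641 bases (chr11:75176993-75177633).

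Exon 3 of the host lies wholly under exon 2 of Ovca2, a serine hydrolase gene on the minus strand at chr11:75175942-75178835. This overlap takes 74.3% of the 863 exonic bases of 1700016P03Rik and leaves 222 bases that are its own. The deposited counts behave as counts made without strand. Of 439 genes whose exons lie wholly under exons of the opposite strand, 435 (99.1%) had no count in any library, against 13895 of 43507 genes (31.9%) whose exons lie under no other gene. Reads from exon 3 were thus in all likelihood counted for neither gene, and the level of the host rests on exons 1 and 2. The 1060 bases of Ovca2 under no other gene include a stretch of 1051 bases, chr11:75175942-75176992, inside intron 2 of the host. Reads of that stretch from either strand were counted as Ovca2.

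The libraries held 5831992 to 18735643 counts and 39260 genes had at least 1 count. The count of Crebbp, the targeted gene, was 1824 to 2429 normalized counts over the control libraries and 1061 to 1337 over the CBP-ifKO libraries. Esr1, which reports the creERT2 transgene, was at 41.0 to 77.8 in controls and 703.4 to 940.7 in CBP-ifKOs. All 6 markers of hippocampal excitatory neurons were detected in every group, with sums of 47772 to 65364 normalized counts. Of these, Wfs1, a marker of CA1 pyramidal cells, was called lower in CBP-ifKOs by DESeq2 in Sal (-0.92, SE 0.13), PTZ0 (-1.25, SE 0.11) and PTZ45 (-1.15, SE 0.14), and Prox1, a marker of dentate granule cells, was called higher in PTZ0 (0.34, SE 0.08). The astrocyte marker Slc1a3 was called lower in Sal (-0.24, SE 0.07, DESeq2 adjusted p 0.0321), a call that edgeR did not make, where 1.77% of all genes were called lower. The summed astrocyte markers did not overlap between genotypes in Sal (12652 to 13818 in CBP-ifKOs against 14661 to 15247) and PTZ0 (13109 to 14514 against 14656 to 15471). They overlapped in PTZ45 (13179 to 15475 against 14220 to 15669). Those of interneurons did not overlap in Sal (5549 to 5930 against 6356 to 6418) and PTZ45 (5847 to 6167 against 6457 to 6538). They overlapped in PTZ0 (5618 to 6293 against 6240 to 6390). Of all single genes, 6.94% were lower in CBP-ifKOs without overlap in Sal and 12.8% in PTZ45. The part of these markers in the genotype differences below was not tested. Markers of choroid plexus, a tissue next to the hippocampus in the ventricle, summed to 10745 to 44033 in 5 libraries and to 435 to 1136 in the other 12. The 5 libraries were Control Sal replicate 2, Control PTZ0 replicate 2, CBP-ifKO Sal replicate 1, CBP-ifKO PTZ0 replicate 3 and CBP-ifKO PTZ45 replicate 2, and values of the host without them are given beside its comparisons. By the sample descriptions, the Control Sal and Control PTZ0 libraries were sequenced on lane 3, Control PTZ45 and CBP-ifKO Sal on lane 4, and CBP-ifKO PTZ0 and PTZ45 on lane 5. PTZ45 against PTZ0 in CBP-ifKOs and PTZ0 against Sal in controls thus lie within a lane, whereas in all other comparisons the lane and the group cannot be told apart.

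In saline-treated controls the host transcript was low. The 3 Control Sal libraries had 13.2, 16 and 17.2 normalized counts, which are counts divided by the size factor of the library, from raw counts of 17, 13 and 19. The exact Poisson 95% intervals of these values ran from 7.7 to 27.4, and such intervals cover counting error only. The 3 Control PTZ0 libraries had 8.8, 3.5 and 11.4, from 10, 3 and 12 counts. All 3 Control PTZ0 libraries lay below all 3 Control Sal libraries.

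In controls given PTZ after the kindling course the host transcript was far higher. Control PTZ45 replicate 1 had 221.1 normalized counts (95% interval 194.5 to 250.3, 250 counts) and replicate 2 had 179.3 (153.0 to 208.8, 165 counts). The means were 200.2 ± 29.6 (SD, n = 2) in PTZ45, 15.5 ± 2.02 (SD, n = 3) in Sal and 7.91 ± 4.03 (SD, n = 3) in PTZ0. The PTZ45 level was 13-fold that of Sal, a log2 fold change of 3.70 (SE 0.31), and 24.5-fold that of PTZ0, a log2 fold change of 4.62 (SE 0.38). Without the libraries rich in choroid plexus markers these changes were 3.73 and 4.31. No Control PTZ45 library overlapped with Sal or with PTZ0, but these are the values that chose the locus. Over all genes, 12% were higher in PTZ45 than in Sal without overlap, and 12.9% were higher than in PTZ0.

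In CBP-ifKOs the host transcript was low in all 3 treatments and highest after PTZ. The 3 CBP-ifKO Sal libraries had 6.4, 8.3 and 8.1 normalized counts, from 10, 4 and 11 counts. The CBP-ifKO PTZ0 libraries had 13.4, 4.8 and 3.9, from 11, 5 and 5 counts. CBP-ifKO PTZ0 replicate 1 stood above the other 2 libraries of its group. The CBP-ifKO PTZ45 libraries had 21, 17 and 31.8, from 20, 17 and 27 counts. All 3 lay above every CBP-ifKO Sal and PTZ0 library, and all 3 lay far below both Control PTZ45 libraries. The means were 7.61 ± 1.05 in Sal, 7.37 ± 5.23 in PTZ0 and 23.3 ± 7.67 in PTZ45 (SD, n = 3 each).

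**Figure D1:**
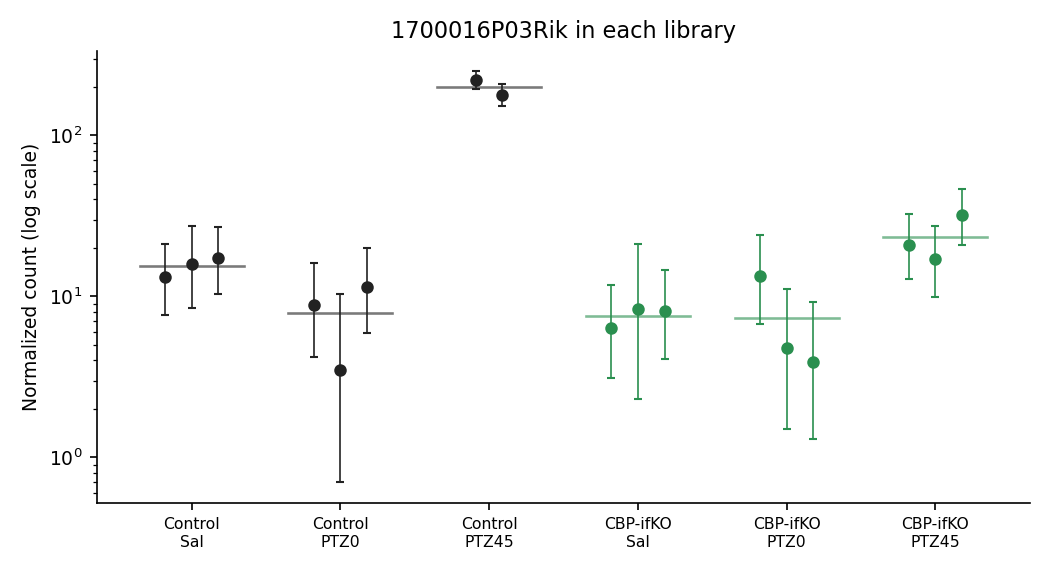
Normalized counts of 1700016P03Rik on a logarithmic axis for each of the 17 libraries, by genotype and treatment, with points for libraries and bars for group means. The 2 Control PTZ45 libraries sit at 179.3 and 221.1, above the 3 CBP-ifKO PTZ45 libraries at 17 to 31.8 and all other libraries at 3.5 to 17.2.

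By mean level the order of the groups was Control PTZ45, CBP-ifKO PTZ45, Control Sal, Control PTZ0, CBP-ifKO Sal and CBP-ifKO PTZ0. The libraries of Control PTZ45 did not overlap with those of CBP-ifKO PTZ45, and those of Control Sal did not overlap with those of Control PTZ0. CBP-ifKO PTZ45 and Control Sal overlapped, as did the neighbours among the lowest 3 groups.

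Whether the host transcript still responded to PTZ in CBP-ifKOs, whose interneurons and glia keep CBP, was tested in the CBP-ifKO libraries. None of these is in the control comparison that chose the locus. The members were, however, chosen with earlier results of these data known, so independence of the choice is not shown. The level after PTZ was 3.09-fold that of Sal (95% interval 1.45 to 6.60), a log2 fold change of 1.63 (SE 0.56). The DESeq2 adjusted p over all genes was 0.441 (edgeR 0.23), so the host was not called. Against PTZ0, within a lane, the level was 3.30-fold (95% interval 1.49 to 7.30), a log2 fold change of 1.72 (SE 0.59, DESeq2 adjusted p 0.936, edgeR 0.618). Without CBP-ifKO PTZ0 replicate 1 it was 2.42 (SE 0.71, DESeq2 adjusted p 0.625). The host was higher in 3 of 3 libraries in both comparisons, and the two-sided exact permutation test gave p = 0.1, the smallest that 3 against 3 libraries allow. The share of all genes higher in every PTZ45 library than in every library of the other group was 4.84% against Sal and 3.92% against PTZ0. Without the libraries rich in choroid plexus markers the log2 fold changes were 1.69 (SE 0.79, DESeq2 adjusted p 1.0) and 1.57 (SE 0.78, DESeq2 adjusted p 1.0). The call depended on the fit, since in 1 fit of all 17 libraries the change against Sal was 1.64 with a DESeq2 adjusted p of 0.0382. That fit takes its estimate of the spread also from the control libraries that chose the locus, so its p is not independent of the choice.

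The increase after PTZ in CBP-ifKOs was a small share of that in controls. Over Sal the mean increased by 15.7 normalized counts in CBP-ifKOs and by 184.7 in controls, so that the former was 8.49% of the latter. Over PTZ0 the increases were 15.9 and 192.3, a share of 8.28%. Among PTZ45 mice the CBP-ifKO level was 8.69-fold lower, a log2 fold change of -3.12 (SE 0.31). The share of all genes lower in every CBP-ifKO PTZ45 library than in both control libraries was 12.8%. The genotype by PTZ45 interaction, which is the difference between genotypes in the log2 response, was -2.07 (SE 0.53) over Sal and -2.87 (SE 0.61) over PTZ0, the latter -2.21 without CBP-ifKO PTZ0 replicate 1. These interactions hold the Control PTZ45 libraries and are a description of the selected gene. Without the libraries rich in choroid plexus markers they were -2.04 and -2.72, and the difference among PTZ45 mice was -2.93.

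In mice not given PTZ on the last day the host was low in both genotypes. The Control Sal libraries may also have entered the choice of the locus, so the p-values in Sal below may not be independent of that choice. Between genotypes in Sal, the CBP-ifKO level was 0.484-fold that of controls (95% interval 0.218 to 1.07), a log2 fold change of -1.05 (SE 0.59). DESeq2 gave no adjusted p for it at this level of counts, and edgeR gave an adjusted p of 0.195, so the host was not called. All 3 CBP-ifKO Sal libraries lay below all 3 Control Sal libraries, as did 6.94% of all genes. The exact permutation p was 0.1, the smallest that 3 against 3 libraries allow. Without the choroid plexus-rich libraries the change was -0.90 in Sal and -0.17 in PTZ0. Between genotypes in PTZ0 the libraries overlapped, with a log2 fold change of -0.17 (SE 0.75) and an interval of 0.321-fold to 2.47-fold. The value was -0.88 without CBP-ifKO PTZ0 replicate 1, and it turned to 0.07, 0.16 and 0.20 without CBP-ifKO PTZ0 replicate 2, CBP-ifKO PTZ0 replicate 3 and Control PTZ0 replicate 3. That comparison is a description.

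The kindling course without a last PTZ dose was examined in PTZ0 against Sal. In controls, within a lane, the PTZ0 level was 0.522-fold that of Sal (95% interval 0.241 to 1.13), a log2 fold change of -0.94 (SE 0.57). The share of all genes lower in PTZ0 without overlap was 3.78%. The Control PTZ0 libraries chose the locus, so these values are a description from which nothing is read. Without the choroid plexus-rich libraries the change was -0.59. In CBP-ifKOs the change was -0.08 (SE 0.77, DESeq2 adjusted p 1.0), the interval ran from 0.335-fold to 2.69-fold, and the exact permutation p was 0.8. Without CBP-ifKO PTZ0 replicate 1 that change was -0.79, and without replicate 2 or 3 of that group it was 0.16 or 0.25, and it was 0.13 without the choroid plexus-rich libraries. With 3 to 19 counts a library in these 4 groups, differences under about the size of these intervals were not detectable.

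Mir212 was seen mostly in Control PTZ45. Its raw counts were 10 and 13 in Control PTZ45, 1, 3 and 3 in Control Sal, and 0 in all 3 Control PTZ0 libraries. In CBP-ifKOs the counts were 0, 0 and 3 in Sal and 0 in all 3 PTZ0 and all 3 PTZ45 libraries. Both Control PTZ45 libraries lay above all the others, and 11 of the other 15 libraries had no count. Pooled over a group, Mir212 had 0.867 CPM (counts scaled to the summed library totals) in Control PTZ45 (exact Poisson 95% interval 0.549 to 1.30) and 0.178 in Control Sal (0.0715 to 0.366). The former was 4.88-fold the latter. The limit for a group with 0 counts was set at 3 counts. Against that limit Control PTZ45 was 10.8-fold higher than Control PTZ0. CBP-ifKO PTZ45 was 9.87-fold lower than Control PTZ45, with a limit of 0.0878 CPM. These ratios take the Control PTZ45 counts as exact and leave out the spread between mice, so they are not lower bounds.

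Mir132 had fewer counts with the same lead of Control PTZ45. Its counts were 8 and 4 in Control PTZ45, 1, 0 and 0 in Control Sal, and 0, 0 and 1 in Control PTZ0. In CBP-ifKOs they were 0, 1 and 0 in Sal, 0 in all 3 PTZ0 libraries, and 0, 0 and 1 in PTZ45. No library outside Control PTZ45 had more than 1 count. The pooled level in Control PTZ45 was 0.452 CPM (exact Poisson 95% interval 0.234 to 0.790), against 0.0293 in CBP-ifKO PTZ45 (0.000741 to 0.163), a ratio of 15.5 that rests on 12 counts against 1. Elsewhere the counts were few. For Mir212 the 0 counts of Control PTZ0 allow up to 0.0799 CPM, against the 0.178 (0.0715 to 0.366) that the 7 counts of Control Sal gave, so the limit lies inside that interval although the libraries did not overlap. These values are a description. The pooled level of Mir212 in CBP-ifKO Sal was 0.0733 CPM (0.0151 to 0.214), from 3 counts. Mir132 had 0 or 1 count in each group outside Control PTZ45.

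The hairpin rows measure RNA that holds the hairpin or a part of it, and the level of mature microRNA was not measured in these libraries. Of 2207 rows annotated as microRNA genes, 1032 (46.8%) had a count and 502 had at least 10 over all libraries. Per kilobase of sequence under no other gene, the host had a mean density of 901.7 normalized counts in Control PTZ45, Mir212 126.2 and Mir132 86.5. The host exons thus had a higher density than the hairpins in intron 1. In CBP-ifKO PTZ45 the density of the host was 104.9.

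Of intron 2 of the host, the 1051 bases named above fall in the row of Ovca2. Its values were 134.0, 123.1 and 130.2 normalized counts in Control Sal, 128.2, 131.2 and 120.0 in Control PTZ0, and 676.5 and 616.0 in Control PTZ45. In CBP-ifKOs they were 105.7, 139.0 and 109.4 in Sal, 126.6, 122.2 and 118.3 in PTZ0, and 176.6, 146.9 and 191.0 in PTZ45. Control PTZ45 stood above all other libraries, and all CBP-ifKO PTZ45 libraries lay above the CBP-ifKO Sal and PTZ0 libraries. The log2 fold change in controls was 2.32 (SE 0.15) over Sal and 2.35 (SE 0.14) over PTZ0. In CBP-ifKOs it was 0.57 (SE 0.19, DESeq2 adjusted p 0.435, edgeR 0.425) over Sal and 0.49 (SE 0.18, DESeq2 adjusted p 1.0, edgeR 0.666) over PTZ0. The increase in CBP-ifKOs was 10.3% of that in controls over Sal and 9.44% over PTZ0, close to the shares of the host. Per kilobase of own sequence, the increase over Sal in controls was 487.9 normalized counts for Ovca2 and 832.1 for the host. Transcripts of the Ovca2 gene and reads from intron 2 of the host cannot be told apart in these counts.

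**Figure D2:**
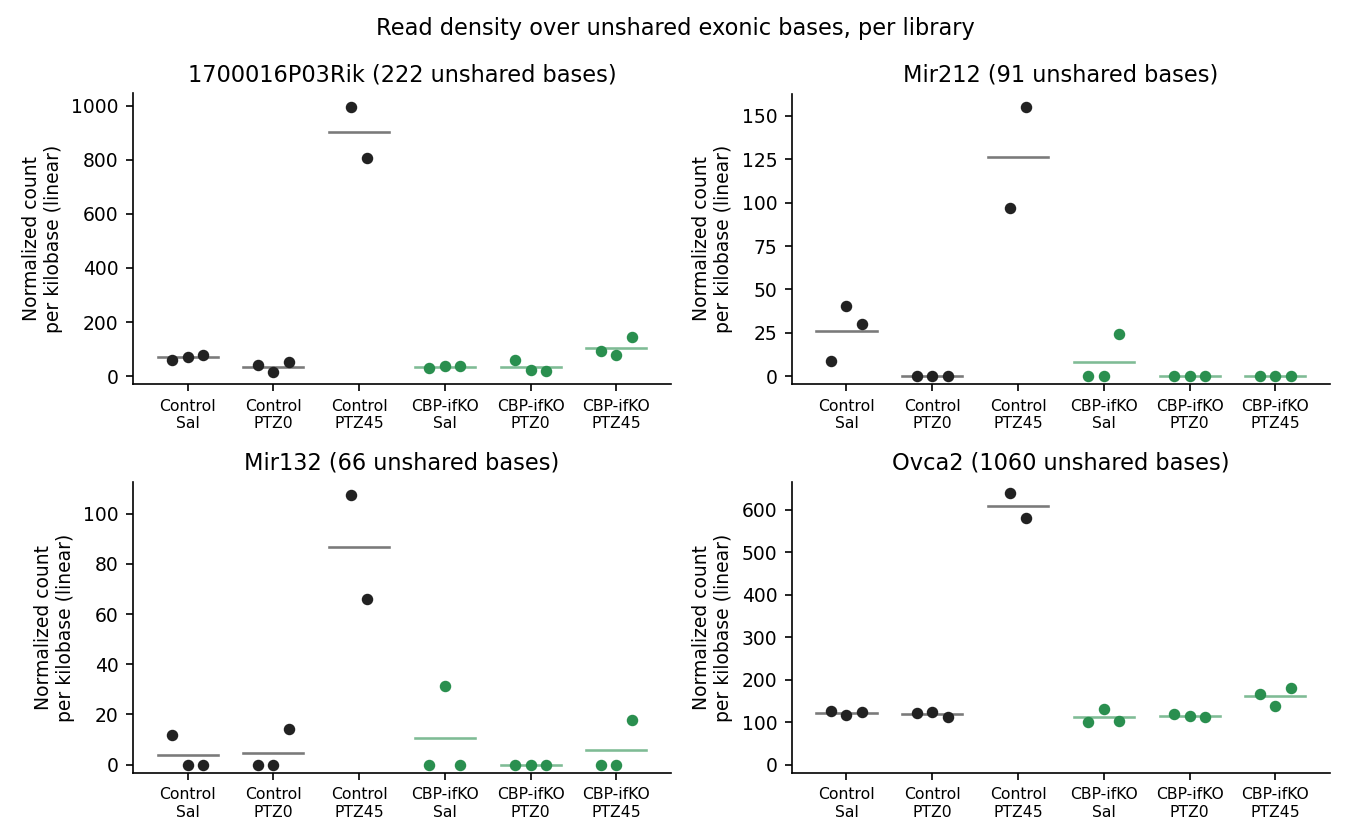
Mean normalized counts per kilobase of sequence that no other gene shares, for 1700016P03Rik, Mir212, Mir132 and Ovca2 in the 6 groups, with points for libraries. In Control PTZ45 the density was 901.7 for the host, 609.7 for Ovca2, 126.2 for Mir212 and 86.5 for Mir132.

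The other genes within 100 kb are Smg6, an endonuclease of nonsense-mediated decay, Hic1, a transcriptional repressor, Dph1, an enzyme of diphthamide synthesis, and Rtn4rl1, a receptor of the Nogo receptor family. In Control PTZ45 against Sal their log2 fold changes were 0.06 (SE 0.11), 0.34 (SE 0.69), -0.30 (SE 0.22) and 0.03 (SE 0.10). DESeq2 called 0 of the 4 in any comparison of PTZ45 with Sal or PTZ0 in either genotype, nor did edgeR, and none had an unadjusted DESeq2 p under 0.05 there. With 0.0607% to 1.18% of all genes called higher in these comparisons, 0 of 4 is near the background. Rtn4rl1 was lower in CBP-ifKOs among PTZ45 mice by a log2 fold change of -0.39 (SE 0.12, DESeq2 adjusted p 0.0427, edgeR 0.0514). Of all genes tested, 2.82% were called lower there. Rtn4rl1 was also lower, without a call, in Sal (-0.28, SE 0.11, DESeq2 adjusted p 0.204) and in PTZ0 (-0.19, SE 0.09, DESeq2 adjusted p 0.226). Dph1, whose 3′ end overlaps Ovca2, shares 36.0% of its exonic bases with other genes.

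The genes whose levels followed the host most closely were found by correlation. Pearson correlations of log2(normalized count + 1) were taken over the 17 libraries for the 13041 genes whose mean reached 50 normalized counts. They are a description, since the libraries share the treatments that set both genes. The 10 highest were Arc (0.962), Gm38257 (0.950), Btg2 (0.943), Nr4a1 (0.942), Npas4 (0.934), Fosb (0.931), Egr1 (0.929), Ovca2 (0.929), Gm47088 (0.926) and Tiparp (0.924). Arc encodes a synaptic protein that is made on activity. Npas4, Fosb, Egr1 and Nr4a1 encode transcription factors of the immediate early class. Btg2 encodes an antiproliferative protein, and Tiparp an ADP-ribosyltransferase. Gm38257 and Gm47088 are transcripts without a settled type in the annotation.

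Without the Control PTZ45 libraries the correlations of these 10 genes were 0.628 to 0.851 over 15 libraries, and 5 of them were still among the 10 highest. Over the CBP-ifKO libraries alone they were 0.721 to 0.939, with Arc highest. Arc had 4272.1 and 4921.4 normalized counts in Control PTZ45, 662.7 to 1010.7 in the other control libraries, 843.2 to 1288.7 in CBP-ifKO PTZ45 and 499.9 to 780.4 in the other CBP-ifKO libraries. The CBP-ifKO PTZ45 libraries thus lay above the other CBP-ifKO libraries and overlapped with the Control Sal libraries, as for the host.

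**Figure D3:**
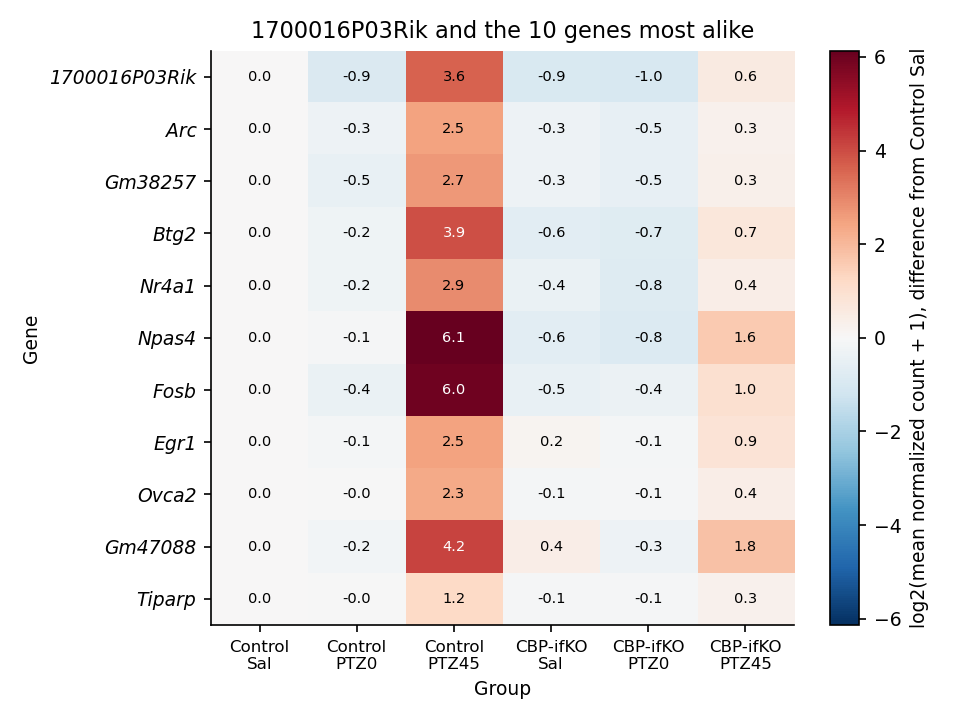
Values of log2(mean normalized count + 1) of each group, as the difference from Control Sal, for 1700016P03Rik and the 10 genes most like it over the 17 libraries, with a column for each group. All 11 transcripts were highest in Control PTZ45, and in CBP-ifKO PTZ45 they lay between that level and the level of CBP-ifKO Sal.

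The responses of these genes in both genotypes are set side by side. Against PTZ0 the host had log2 fold changes of 4.62 in controls and 1.72 in CBP-ifKOs. For Npas4 these were 6.23 and 2.51, and for Fosb 6.45 and 1.37. For Btg2 they were 4.17 and 1.40, for Gm47088 4.35 and 2.19, and for Arc 2.77 and 0.78. Tiparp had 1.29 and 0.36, the smallest control response of the 10. The host had the largest SE of these genes in CBP-ifKOs, 0.59. The 10 genes were chosen by their likeness to the host over the same libraries, so the values are given side by side with no test of a difference between genes.

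**Figure D4:**
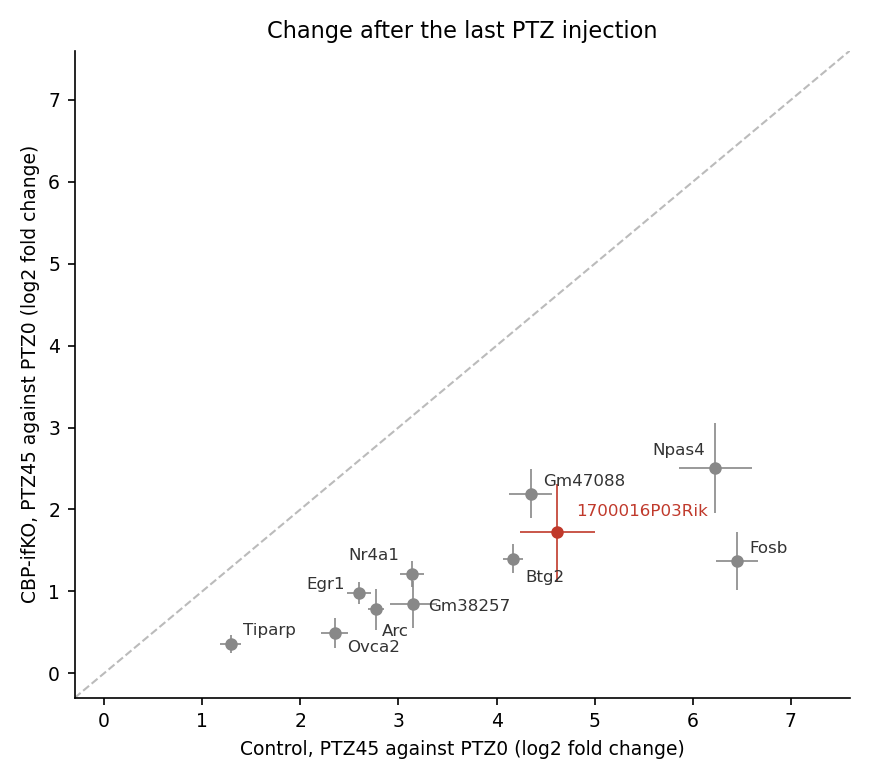
Log2 fold changes of PTZ45 against PTZ0 with bars of 1 SE, controls on the horizontal axis and CBP-ifKOs on the vertical axis, for 1700016P03Rik and the 10 genes most like it. All 11 points lie below the dashed line of equal response, with the host at 4.62 and 1.72.

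Genes known as CREB targets or as activity-regulated were taken as a list of 15, namely Fos, Junb, Egr1, Nr4a1, Nr4a2, Per1, Crem, Sik1, Bdnf, Pcsk1, Dusp1, Gadd45b, Nptx2, Arc and Btg2, to set the host beside genes of its own pathway. The list was chosen with earlier results of these data known, so its counts of called genes here and below are a description. In controls DESeq2 called 12 of 15 higher in PTZ45 than in Sal, against 0.939% of all genes tested, with a median log2 fold change of 1.94 against 0.01 over all genes (14 in edgeR). Against PTZ0 it called 12, where the share of all genes was 1.18% and the medians were 1.92 and 0.0 (12 in edgeR). The host, at 3.70 and 4.62, lay above these medians and below Fos, a subunit of AP-1, at 6.08 (SE 0.48) and 6.68 (SE 0.19). Btg2, at 3.95 (SE 0.12) and 4.17 (SE 0.10), was the nearest of the list to the host in both comparisons. Bdnf, which encodes a neurotrophin, Pcsk1, a prohormone convertase, and Crem, a CREB family member, were not called by DESeq2.

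In CBP-ifKOs a part of the list rose. DESeq2 called 6 of 15 higher in PTZ45 than in Sal, against 0.086% of all genes tested, with a median of 0.33 against 0.0. These were Fos at 2.91 (SE 0.26), Dusp1, a phosphatase of MAP kinases, at 1.45 (SE 0.23), Btg2 at 1.29 (SE 0.18), Nr4a1 at 0.82 (SE 0.17), Egr1 at 0.71 (SE 0.13) and Arc at 0.57 (SE 0.15). In edgeR 2 were called. Over all 5 pathway lists together 6 genes were called, against 3 without the choroid plexus-rich libraries. Over PTZ0, DESeq2 called 6 of 15 (5 in edgeR), against 0.0607% of all genes, with a median of 0.51 against 0.0. Fos rose by 4.03 (SE 0.30), Dusp1 by 1.70 (SE 0.22) and Btg2 by 1.40 (SE 0.18), and Nr4a1, Egr1 and Nr4a2 rose by 1.21, 0.98 and 0.51. The log2 fold changes of the host, 1.63 and 1.72, lay above that of Dusp1 in both comparisons and below that of Fos. The SE of the host was 2 or more times that of Dusp1, and the host was not called.

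Between genotypes, genes of the list were lower in CBP-ifKOs in each treatment. In Sal DESeq2 called 5 of 15 lower (3 in edgeR), against 1.77% of all genes tested, with a median of -0.40 against 0.0. Nptx2, a neuronal pentraxin, was at -1.05 (SE 0.25), the same value as for the host, whose SE was 0.59. Bdnf, Junb, Btg2 and Pcsk1 ran from -0.73 to -0.59. In PTZ0 DESeq2 called 7 of 14 lower (7 in edgeR), against 5.25% of all genes, with a median of -0.49, from Nptx2 at -1.29 (SE 0.22) and Bdnf at -0.86 (SE 0.11) to Pcsk1 at -0.46 (SE 0.10), with Nr4a1, Nr4a2, Per1 and Dusp1 between them. The host was at -0.17 (SE 0.75) there. Over the 5 pathway lists together, the genes called between genotypes numbered 6 in Sal and 12 in PTZ0, against 3 and 3 without the choroid plexus-rich libraries. Among PTZ45 mice 14 of 15 were called lower (13 in edgeR), against 2.82% of all genes, with a median of -1.61, and the exception was Crem at -0.21. Fos at -3.53 (SE 0.30), Btg2 at -3.26 (SE 0.13) and Junb, another AP-1 subunit, at -2.97 (SE 0.14) stood beside -3.12 (SE 0.31) for the host.

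The interaction of genotype and PTZ45 was called negative for 9 of 15 genes over Sal (8 in edgeR), against 0.329% of all genes tested, and for 9 over PTZ0 (7 in edgeR), against 0.423%. They were Fos, Junb, Egr1, Nr4a1, Nr4a2, Per1, Dusp1, Arc and Btg2 in both fits, which share the PTZ45 libraries. Over Sal the values ran from -3.18 (SE 0.52) for Fos to -1.12 (SE 0.21) for Per1. The median over the list was -1.40 over Sal and -1.31 over PTZ0, against 0.0 over all genes, and the host was at -2.07 and -2.87.

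The kindling course without a last PTZ dose left the list without a call in DESeq2 and in edgeR. In controls 0 of 15 were called in PTZ0 against Sal, and the share of all genes called was 0.00843%. At an unadjusted p under 0.05 there were 2 in DESeq2, both lower in PTZ0, and 3 in edgeR. Over all genes DESeq2 had 207 at that p, with 35602 tested. In CBP-ifKOs 0 of 15 were called, and the share of all genes was 0.0112%. At an unadjusted p under 0.05 there were 4 in DESeq2, all lower in PTZ0, and 4 in edgeR. Over all genes DESeq2 had 120 at that p, with 35705 tested. The medians were -0.05 and -0.19.

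CREB itself and its partners were taken as a list of 8 genes, Creb1, Crem, Atf1, Crtc1, Crtc2, Crtc3, Crebbp and Ep300. After PTZ DESeq2 called 0 of them in either genotype against Sal or PTZ0. The shares of all genes called higher were 0.939% and 1.18% in controls and 0.086% and 0.0607% in CBP-ifKOs, so that 0 of 8 is near the background. At an unadjusted p under 0.05 there were 1 in controls over Sal, 2 in controls over PTZ0 and 0 in CBP-ifKOs, and edgeR called 1 gene in controls over Sal. Crebbp was lower in CBP-ifKOs by -0.79 (SE 0.11) in Sal, -0.78 (SE 0.07) in PTZ0 and -0.98 (SE 0.10) in PTZ45, with DESeq2 adjusted p-values of 2.4e-09, 4.84e-26 and 1.84e-18. Its paralogue Ep300 was higher by 0.29 (SE 0.09, DESeq2 adjusted p 0.0149) in PTZ0, where 1.43% of all genes tested were called higher.

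Of 14 genes that process microRNAs, a pair of RNA helicases rose after PTZ in controls. Ddx3x rose by 0.50 (SE 0.10, DESeq2 adjusted p 0.000194) over Sal and by 0.45 (SE 0.08) over PTZ0. Ddx5, a helicase of the Drosha complex, rose by 0.46 (SE 0.07, DESeq2 adjusted p 2.55e-08) and 0.44 (SE 0.06). These are 2 of 14 genes, where 0.939% of all genes tested were called higher over Sal and 1.18% over PTZ0. The remaining 12, with Drosha, Dgcr8, Dicer1, the export factor Xpo5 and the Argonautes Ago1 to Ago4 among them, were not called, and the lowest was Tarbp2 at -0.33 over Sal. In CBP-ifKOs 0 of 14 were called over Sal or over PTZ0 in DESeq2 and edgeR. This is near the background of 0.086% and 0.0607% of all genes called higher. In each comparison 1 of 14 had an unadjusted DESeq2 p under 0.05. Over all genes 877 had such a p over Sal, with 19757 tested, and 559 over PTZ0, with 26374 tested. Their changes over Sal ran from -0.19 for Ago2 to 0.27 for Ddx3x. The interaction of Ddx5 was -0.37 (SE 0.09) over Sal and over PTZ0, with DESeq2 adjusted p-values of 0.0139 and 0.00694, and was called in neither by edgeR. Between genotypes Ddx5 differed by -0.27 (SE 0.08, DESeq2 adjusted p 0.0214) in PTZ45, where 2.82% of all genes were called lower, a call that edgeR did not make. In PTZ0 Ago3 was higher by 0.29 (SE 0.08) and Ddx17 by 0.19 (SE 0.05) in CBP-ifKOs, 2 of 14 against 1.43% of all genes tested, and edgeR called 1 of them.

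Other microRNA host transcripts were looked at in the same way. Of 14 listed, 12 were found in the table, and 10 were tested in Control PTZ45 against Sal. DESeq2 and edgeR called 0 of them there, against 0.939% of all genes tested called higher, with 1 at an unadjusted DESeq2 p under 0.05. This was Mir22hg, at 0.40 (SE 0.14, DESeq2 adjusted p 0.185), which had the highest value of the list. Over PTZ0 Meg3 was called at 0.19 (SE 0.05, DESeq2 adjusted p 0.0368), 1 of 10 against 1.18% of all genes, and edgeR called 2. In CBP-ifKOs 0 were called after PTZ in DESeq2 and edgeR, against 0.086% of all genes called higher over Sal and 0.0607% over PTZ0, with 1 at an unadjusted p under 0.05 over Sal and 0 over PTZ0.

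The sites through which the shared 3p seed can pair with messenger RNAs were searched in the annotated 3′ untranslated regions of GRCm38. The 7-base site GACTGTT, which pairs with seed bases 2 to 8, was found on the transcript strand in 2253 of 21045 protein-coding genes (10.7%), and the 8-base form GACTGTTA in 495 (2.35%). Of 16 genes known as targets of miR-132 or miR-212, 15 (93.8%) hold the 7-base site and 5 the 8-base form. Ache, with an annotated region of 228 bases, holds neither. A few examples are shown in lower case with the 7-base site in capitals, for targets that are called below.
Btg2: tagagctgGACTGTTgagcaggc
Nr4a2: cagcttttGACTGTTtccagagt
Arhgap32: ggacagtgGACTGTTctattttt
Ep300: actgtataGACTGTTaaatttga
These sites start at base 1852 of 2199 in the 3′ untranslated region of Btg2 (chromosome 1), 1013 of 1326 in Nr4a2 (chromosome 2), 44 of 7298 in Arhgap32 (chromosome 9) and 1034 of 1095 in Ep300 (chromosome 15). The site of Ep300 is of the 8-base form, since an A follows the 7 bases. A match is a description of these letters and does not show that the site is used.

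Of the 16 known targets 0 were called lower after PTZ in either genotype, by DESeq2 or edgeR, and 1 was lower at an unadjusted DESeq2 p under 0.05, in controls over Sal. Few genes were called lower at all, 41 of 17367 in controls and 0.208% in CBP-ifKOs over Sal, and 12 of 17982 and 7 of 26374 over PTZ0, so nothing is read from this count. Against Sal in controls, 2 of 16 rose, Btg2 by 3.95 (SE 0.12) and Nr4a2 by 1.94 (SE 0.11), both of which are also on the list of CREB targets, against 0.939% of all genes tested. The median of the 16 was 0.11 over Sal and 0.10 over PTZ0. The forkhead factor gene Foxo3 was at 0.08, the GTPase activating protein gene Arhgap32 at 0.14, the Ras GTPase activating protein gene Rasa1 at 0.16 and the deacetylase gene Sirt1 at 0.20, none of which was called. The acetylcholinesterase gene Ache had the lowest value, -0.38. In CBP-ifKOs Btg2 rose by 1.29 over Sal, with a DESeq2 adjusted p of 1.64e-09, and Btg2 and Nr4a2 rose over PTZ0, where edgeR called 1. These are 1 and 2 of 16, against 0.086% and 0.0607% of all genes tested. The medians were 0.08 and 0.04.

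Between genotypes, Btg2, Nr4a2 and Arhgap32 were lower in CBP-ifKOs in PTZ45, at -3.26 (SE 0.13), -2.0 (SE 0.11) and -0.33 (SE 0.09, DESeq2 adjusted p 0.00939), and edgeR called 2 of these. Of all genes tested, 2.82% were called lower there. In PTZ0, Nr4a2 at -0.59 and Arhgap32 at -0.27 (SE 0.06) were lower, 2 of 15 tested against 5.25% of all genes, and Ep300 was higher, 1 of 15 against 1.43%. In Sal only Btg2 was called by DESeq2, at -0.61, 1 of 15 against 1.77% of all genes, and 0 were called by edgeR.

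Genes with the 7-base site were compared with all genes that lack it, as 45 min after the injection is the only time sampled. In Control PTZ45 against Sal, 14 of 1806 genes with the site were called higher and 3 lower, which is 0.775% and 0.166%. Of 11743 genes without it, 0.903% were called higher and 0.307% lower. Among the tested genes with the 8-base form, 2 were called higher and 2 lower, each 0.51%. The median log2 fold changes were 0.033 and -0.016. Among PTZ45 mice 2.97% of 1753 genes with the site and 3.06% of 10935 genes without it were lower in CBP-ifKOs, with medians of 0.003 and 0.010. In Sal the shares were 2.01% and 2.03%. Genes with the site had longer annotated 3′ untranslated regions, with medians of 2522 and 1122 bases in the first of these comparisons. The shares and medians are descriptions of the lists, and no test of the difference was made.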

How the data were processed

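The study's authors deposited raw counts per gene, not normalized, as whole numbers. By the methods and the submitters' processing notes, single-end reads of 50 bases were trimmed (Trim Galore 0.6.4, checked with FastQC 0.11.8), aligned to GRCm38 (STAR 2.6.1), filtered on mapping quality and counted on exons of Ensembl release 99 with Rsubread; the notes also name DESeq2 1.30.1. The strand setting is not given in the sources used here. Of 18 columns of counts, 1 matched no sample of the labels and was not analysed here. Its name begins like those of the Control PTZ45 libraries, a group with 2 libraries here. Of the gene identifiers, 99.6% were found in GENCODE M21 (GRCm38).

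The Wald test of DESeq2 1.42.0 (R 4.3.3, two-sided) was fitted on the libraries compared, for all genes with at least 1 count, and a gene was called at a Benjamini-Hochberg adjusted p under 0.05 with independent filtering. Normalized counts use size factors over all 17 libraries. The quasi-likelihood test of edgeR 4.0.16 was the alternative, beside TMM scaling, a filter of 10 counts in 2 libraries, 1 fit of all libraries, a replicate block and leaving out each library. Leaving out the libraries rich in choroid plexus markers (sums above 5000), and leaving out libraries for the lists, were added after the data had been seen. Scripts were tested on simulated data. The members and lists were chosen with earlier results of these data known. Named are the members, list genes called in a comparison described, the processing genes at the extremes, genes within 100 kb, the 10 genes most correlated with the host, and Crebbp, Ep300 and Esr1. Foxo3, Rasa1, Sirt1, Ache, Crem, Creb1 and other uncalled list genes were named from their lists after their values were seen. The values of some listed targets are not reported here. Promoter sequences of the members were not used here.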

Additional observations from a re-analysis of the deposited data

How the results depend on the processing

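Of 148 alternative values of the host transcript over 11 comparisons, 142 kept their direction and 6 changed it. In CBP-ifKOs, PTZ45 against Sal was called in 1 fit of all 17 libraries (1.64, adjusted p 0.0382), and over its alternatives the adjusted p ran from 0.0382 to 1.0. Without each library in turn it ran from 1.34 to 1.81, and PTZ45 against PTZ0 from 1.39 to 2.42 (adjusted p 0.625 to 1.0, and 0.114 to 1.0 over all its alternatives). PTZ0 against Sal in CBP-ifKOs changed sign without the choroid plexus-rich libraries (0.13) and ran from -0.79 to 0.25 without single libraries. The genotype difference in PTZ0 ran from -0.88 to 0.20, and the interaction over PTZ0 from -3.21 to -2.21, the latter without CBP-ifKO PTZ0 replicate 1. The cause was not tested. EdgeR could not be fitted for the host in CBP-ifKO PTZ0 against Sal and for the genotypes in PTZ0, where its filter left the host out.

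Over the pathway lists together, the genes called in CBP-ifKO PTZ45 against Sal were 6, against 2 in edgeR and 3 without the choroid plexus-rich libraries. Between genotypes in Sal they were 6, against 3 without the choroid plexus-rich libraries and 3 to 7 without single libraries, with 3 without Control Sal replicate 2, Control Sal replicate 3 or CBP-ifKO Sal replicate 1. Between genotypes in PTZ0 they were 12, against 3 without the choroid plexus-rich libraries and 6 to 12 without single libraries, with 7 without CBP-ifKO PTZ0 replicate 3 and 6 without Control PTZ0 replicate 1. In Control PTZ0 against Sal they were 0 to 1, with 1 without Control Sal replicate 1. Of the 10 genes most like the host, 8 were shared with TMM-scaled CPM values and 5 without the Control PTZ45 libraries.

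Replicate numbers were not taken as pairs in the main fits. Of 24 pairs of same-numbered libraries, 8 had correlated deviations above 0.1 (range -0.52 to 0.48 over 13041 genes). Libraries with different numbers were not compared in this way, so these values cannot show whether samples were paired. With the replicate number as a replicate block, the host changed by 1.61 and 1.80 in CBP-ifKO PTZ45 against Sal and PTZ0, -0.23 and -1.03 in PTZ0 against Sal of CBP-ifKOs and controls, -1.03, -0.16 and -3.39 between genotypes in Sal, PTZ0 and PTZ45, 3.79 and 5.03 in Control PTZ45 against Sal and PTZ0, and -2.20 and -3.07 in the interactions. The block changed no call. Numbers are those of the sample titles, and Control PTZ45 replicate 2 carries a 3 in its column name.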
